A study of Mus musculus with 30 samples.

Results

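Transcripts of 10 genes that coat lipid droplets or control the breakdown of stored triglyceride were followed in liver and skeletal muscle of mice on 3 diets. The genes were Plin2, Plin3, Plin4, Plin5, Cideb, G0s2, Pnpla2, Abhd5, Lipe and Aup1, taken by gene symbol with every probe that the array annotation gives them. They had 13 probes, out of 25697 probes and 16593 genes on the array. A probe was kept in a tissue where its detection p-value was under 0.02 on at least 5 of the 15 arrays, and 11 of the 13 probes, covering 9 of the 10 genes, were kept in each tissue. Plin5 has the probes ILMN_3158565 and ILMN_2607215, Aup1 has ILMN_2682623 and ILMN_1252199, and Lipe has ILMN_2742636 and ILMN_3111326, where the first of Plin5 and Aup1 is called the brighter probe and the second the dimmer. The other genes have 1 probe each.

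The animals were male C57BL/6J mice, and the diets started when they were 28 weeks old. The SRT2104 group received a standard AIN-93G diet with 1.33 g of SRT2104 per kg of chow, about 100 mg per kg of body weight a day, where SRT2104 is a synthetic activator of the deacetylase SIRT1. The CR group received the same AIN-93G diet at 40% caloric restriction, and the SD group received it freely and without drug. Each tissue and diet had 5 arrays (30 arrays in all), hybridised with RNA of whole tissue. The labels of the CR arrays give an age of 41 weeks after 14 weeks on the diet, and those of the SRT2104 and SD arrays speak of the end of life. The study's array methods, however, give 41 weeks of age and 14 weeks of diet for every group. According to the design notes liver and muscle were taken from the same 5 mice of a group.

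Triglyceride in a cell is stored in droplets with a coat of proteins. Perilipins (Plin2 to Plin5) cover the surface and limit or direct the access of lipases, Pnpla2 (adipose triglyceride lipase) removes the first fatty acid, Abhd5 switches Pnpla2 on, G0s2 inhibits it, and Lipe (hormone-sensitive lipase) takes the next step. Cideb sits on hepatocyte droplets and passes lipid to nascent VLDL, and Aup1 spans the droplet surface and the endoplasmic reticulum, where it brings the ubiquitin-conjugating enzyme Ube2g2 to proteins bound for degradation. Liver fills and empties these droplets with feeding and fasting, while oxidative muscle burns their fatty acids in mitochondria.

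Plin3, Plin4 and Plin5 lie on one stretch of chromosome 17, all on the minus strand, with 0 genes starting between Plin4 and Plin5 and 9 between Plin5 and Plin3. They are shown because neighbouring perilipin genes had different values on the same diets, and G0s2 because it was higher with CR in both tissues. The sequences are the 250 bases before the start site, 5′ to 3′, from RefSeq on GRCm38.p6, and capitals mark the motif AGGTCA, the core site bound by many nuclear receptors. The windows are chr17:56290512-56290761 for Plin3, chr17:56109783-56110032 for Plin4, chr17:56117549-56117798 for Plin5 and chr1:193273189-193273438 for G0s2.
Plin3: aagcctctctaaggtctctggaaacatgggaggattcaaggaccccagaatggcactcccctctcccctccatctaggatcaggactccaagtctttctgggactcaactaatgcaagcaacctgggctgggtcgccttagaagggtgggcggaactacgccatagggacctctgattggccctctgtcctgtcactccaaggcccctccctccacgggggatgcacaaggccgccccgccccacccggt
Plin4: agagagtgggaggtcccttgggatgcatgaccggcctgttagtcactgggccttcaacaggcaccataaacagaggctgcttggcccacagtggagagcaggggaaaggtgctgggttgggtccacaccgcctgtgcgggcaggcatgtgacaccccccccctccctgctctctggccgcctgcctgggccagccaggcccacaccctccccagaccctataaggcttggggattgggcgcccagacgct
Plin5: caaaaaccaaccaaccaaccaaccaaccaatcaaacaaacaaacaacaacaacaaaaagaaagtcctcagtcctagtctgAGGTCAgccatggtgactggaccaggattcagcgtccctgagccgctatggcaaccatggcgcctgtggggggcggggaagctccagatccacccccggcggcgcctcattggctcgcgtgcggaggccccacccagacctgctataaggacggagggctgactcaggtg
G0s2: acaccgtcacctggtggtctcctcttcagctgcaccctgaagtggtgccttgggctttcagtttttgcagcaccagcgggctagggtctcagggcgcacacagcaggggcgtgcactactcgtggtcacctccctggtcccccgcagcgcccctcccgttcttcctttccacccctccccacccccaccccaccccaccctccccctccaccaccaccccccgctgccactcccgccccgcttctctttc
A total of 4 motifs was searched on both strands. AGGTCA was found in 14% of 32851 promoters of this length, the repeat AGGTCANAGGTCA in 0.0335%, GTAAACA in 3.17% and CACGTG in 6.02%. AGGTCA is also counted inside AGGTCANAGGTCA. Plin5 has 2 start sites in the table, and the one shown held AGGTCA with its first base 170 bases before the start while the other held none of the 4 motifs, and Plin3, Plin4 and G0s2 held none of them. Among the other genes Plin2 and Abhd5 held AGGTCA, 218 and 69 bases before the start, and Lipe held CACGTG at start site 1 and GTAAACA at start site 2. The table matched 9 of the 10 genes with 11 windows, and Aup1 is named only. A match describes letters in the window and nothing about binding.

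Levels are given in log2 units. Each array's deposited scores were rescaled over the kept probes of its tissue and returned to log2 units of signal, so that a difference of 1 is a 2-fold difference, and levels were compared between arrays for a probe and never between probes. Diets were compared with limma over all kept probes (11065 in liver and 10792 in muscle), with Benjamini-Hochberg adjustment over all of them and a threshold of 0.05. The tissues matched their labels, with summed hepatocyte markers between 238000 and 568000 signal units on the liver arrays and summed skeletal muscle fibre markers between 142000 and 474000 on the muscle arrays. Detected probes made up 40.2% to 43.3% of the array in liver and 26.7% to 43.1% in muscle. In muscle, SRT2104 replicate 3 and CR replicate 3 correlated with the other arrays of their diets at median r of 0.903 and 0.811, against at least 0.964 for the other muscle arrays, and SRT2104 replicate 3 carried a summed hepatocyte marker level of 156000 signal units, against 1100 to 3740 on the other muscle arrays. Muscle CR replicate 2 carried a summed adipocyte marker level of 29200, against 1780 to 6300 on the others, and liver CR replicate 1 a summed muscle fibre level of 43500, against 1240 to 2560. Results on muscle are therefore given over 15 arrays and, where the call changes, over 12 arrays (leaving out the third array of SRT2104 and of CR and SD replicate 1, which earlier work on these data set apart). In RNA of whole tissue, fewer cells of a type and less RNA per cell cannot be told apart.

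The tissues carried the droplet genes at different levels on SD. On a scale shared by both tissues, all 12 probes that could be tested differed between liver and muscle, where 73.5% of the 12859 probes tested did. A probe could be tested if it was kept in either tissue. Cideb, kept in liver only, and Lipe, kept in muscle only, thus entered through the tissue where they were high. The share over all probes rests on the same rule. Plin2, a widely expressed perilipin, averaged 11.14 ± 0.32 in liver and 7.46 ± 0.07 in muscle (SD, n = 5 each), a 12.8-fold difference, and it was above background on only 3 of the 5 SD muscle arrays. Cideb was detected on every SD liver array and on 0 SD muscle arrays, and it was at least 21.0-fold higher in liver, taking the lowest detected signal of each muscle array as the floor. Plin3 was 1.87-fold higher in liver, G0s2 2.69-fold (adjusted p = 0.0034), and the Aup1 probes 7.75-fold and 2.91-fold.

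Muscle led for the genes of the lipase step. Plin4, a perilipin of adipocytes and striated muscle, averaged 9.33 ± 0.19 in liver and 12.42 ± 0.37 in muscle, 8.52-fold higher in muscle. Pnpla2 was 2.88-fold and Abhd5 1.82-fold higher in muscle, so that the lipase and its activator shared a direction while the inhibitor G0s2 had the other. Lipe was detected with 1 of its 2 probes, on all SD muscle arrays and 1 SD liver array, and its liver level was thus mostly a background level, from which the muscle level differed by -0.44 (liver minus muscle, log2 scale, adjusted p = 0.0143). That call ended with quantile normalization (adjusted p = 0.0797) and on the deposited scores as they are (0.166). Both probes of Plin5, the perilipin that ties droplets to mitochondria, were higher in liver, by 1.99-fold and 1.35-fold, and the call of the second ended with median scaling (0.27 on the log2 scale, adjusted p = 0.15).

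In liver, Plin5 fell with SRT2104. Its brighter probe read 9.94, 9.76, 9.74, 10.14 and 9.89 on the SRT2104 arrays, against 10.34, 10.64, 11.16, 11.05 and 10.53 on the SD arrays. Every SRT2104 array was below every SD array. The change was -0.85 ± 0.13 on the log2 scale (SE), 1.80-fold lower, with an adjusted p of 0.00353. It was 1 of 11 member probes past the threshold, where 3.16% of all liver probes passed, and 1 of 11 without overlap between the diets, where 4.87% of all probes had none. Without any 1 of the liver arrays the change stayed between -0.95 and -0.75, with adjusted p-values up to 0.0154. By the methods' test on the same values, with the same adjustment, the adjusted p was 0.095.

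The dimmer Plin5 probe read 7.92, 8.01, 7.86, 8.28 and 8.11 on the SRT2104 arrays and 8.29, 8.32, 8.84, 8.63 and 8.10 on the SD arrays. The lowest SD array, replicate 5, fell among the SRT2104 values. The change of this probe, -0.40 ± 0.12, did not pass (adjusted p = 0.0655), and without SD replicate 5 it was -0.49 with an adjusted p of 0.0322. The brighter probe moved by a further -0.45 ± 0.08 (adjusted p = 0.0192), where 0.815% of 2700 liver probe pairs of one gene differed. That difference between the probes was -0.37 with quantile normalization (adjusted p = 0.0827) and -0.17 with neqc (0.58), which subtracts background.

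The other coat proteins and the lipolysis genes gave no call between SRT2104 and SD in liver over all arrays. Plin4 read 8.83, 8.75, 8.33, 8.99 and 10.59 with SRT2104, against 9.79, 9.61, 9.53, 9.60 and 10.05 with SD. Replicates 1 to 4 of SRT2104 were below every SD array and replicate 5 above them all. The change was -0.62 ± 0.28 (adjusted p = 0.234) over the 5 arrays and -0.99 without replicate 5 (adjusted p = 0.00167). The same array read 9.57 for Cidec and 10.01 for Pparg, against 7.14 to 8.05 and 8.40 to 9.07 on the other SRT2104 liver arrays, and its summed adipocyte markers without Car3 were 2610 against 1270 to 1530. Adipoq, Plin1, Retn and Fabp4, which define adipocytes, were detected on 0 of the SRT2104 liver arrays. Retn and Fabp4 were detected on no muscle array either, also not on muscle CR replicate 2 with its high adipocyte markers. Adipoq, by contrast, passed the detection filter in muscle. The part of the adipocyte markers in the Plin4 result was not tested.

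Cideb read 12.40, 12.63, 12.51, 12.48 and 12.59 with SRT2104, against 12.47, 12.07, 12.46, 12.23 and 12.30 with SD, a difference of 0.22 (adjusted p = 0.137). Pnpla2 read 11.61, 11.33, 11.43, 11.41 and 11.58 with SRT2104, against 11.01, 11.41, 11.40, 11.36 and 10.87 with SD, a difference of 0.27 (adjusted p = 0.177). In both genes the diets overlapped. Plin2 spread from 10.43 to 11.91 with SRT2104, against 11.18 to 12.08 with SD (-0.41, adjusted p = 0.303), and its CR arrays lay between 10.94 and 11.37. Abhd5, the activator of Pnpla2, had 9.18 to 9.65 with SRT2104, 9.03 to 9.46 with CR and 9.06 to 9.47 with SD (0.23 for SRT2104 against SD, adjusted p = 0.237). Plin3 (-0.22, adjusted p = 0.222) and G0s2 (0.05, 0.973) also did not pass, and the brighter and dimmer Aup1 probes differed by 0.11 and 0.10.

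**Figure D1:**
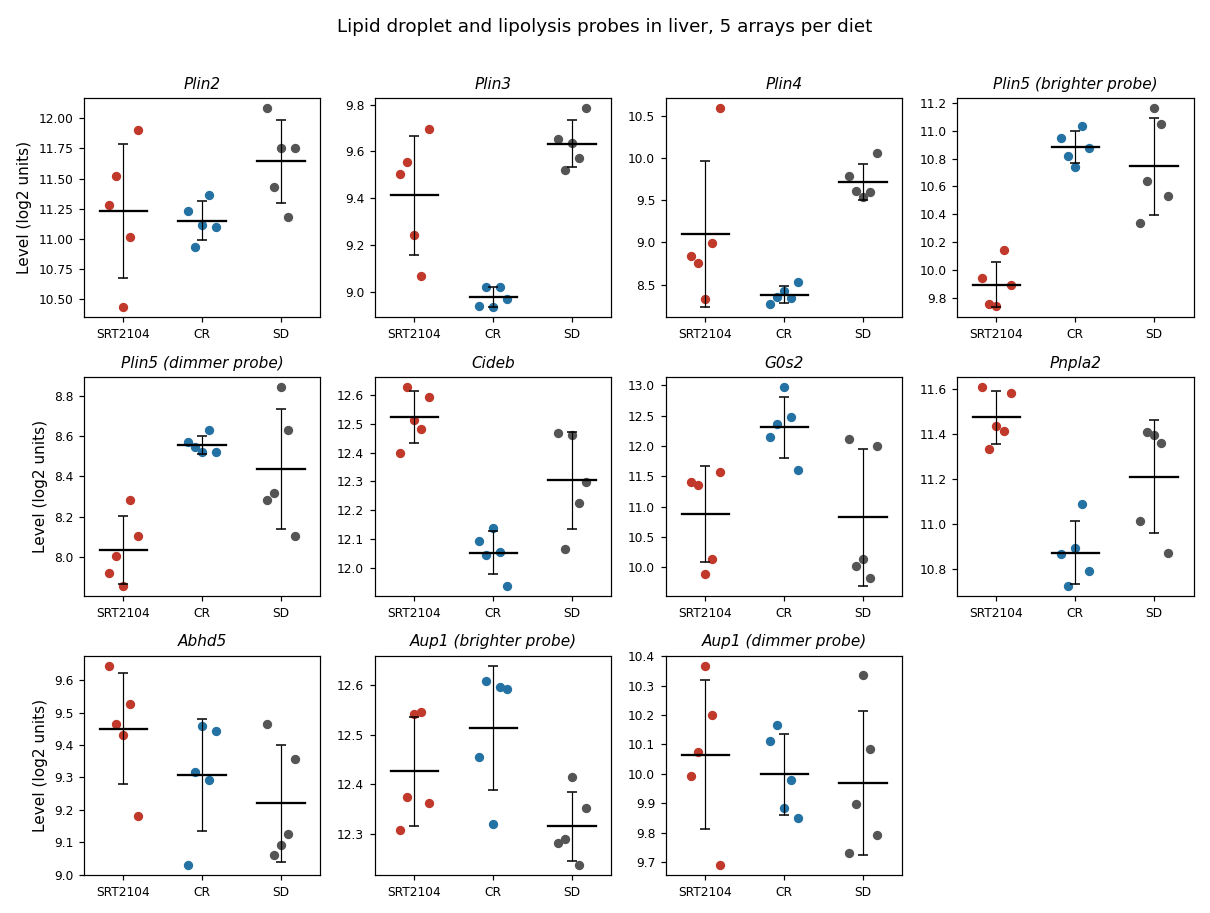
Level of each kept probe in liver (log2 units, y axis, its own range in each panel) by diet (x axis). Points are arrays, 5 for each diet, and bars are the mean and SD. The brighter Plin5 probe sits between 9.74 and 10.14 on the SRT2104 arrays, below all SD arrays, and the Plin3 and Plin4 points of CR lie below all SD points.

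With CR, Plin3, Plin4, Cideb and Pnpla2 fell in liver and G0s2 rose. With 1 probe up and 4 down, 5 of 11 member probes passed, where 26.7% of all liver probes did, and 2 of 11 did not overlap, where 16.2% of all probes did not. The split was 1 up and 3 down under neqc and quantile normalization, 1 and 5 with median scaling, and 2 and 3 on the deposited scores as they are. By the methods' t-test after adjustment Cideb, Pnpla2 and G0s2 did not pass.

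Plin3, a perilipin that moves between cytosol and new droplets, read 8.94, 9.02, 8.93, 9.02 and 8.97 with CR, against 9.66, 9.52, 9.63, 9.57 and 9.78 with SD. The CR values were tight and lay below every SD value. The change was -0.65 ± 0.10, 1.57-fold lower (adjusted p = 0.000162). Plin4 read 8.27, 8.35, 8.42, 8.34 and 8.53 with CR, again below every SD array (9.53 to 10.05), and was 2.52-fold lower (-1.33 ± 0.28, adjusted p = 0.00228). Liver CR replicate 1, the array with muscle fibre signal, had the lowest Plin4 level of the group. Without any 1 liver array the Plin4 change stayed between -1.38 and -1.25.

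Cideb read 12.09, 12.05, 12.14, 12.05 and 11.94 with CR, against 12.07 to 12.47 with SD, and was 1.19-fold lower (-0.25 ± 0.08, adjusted p = 0.0281). Pnpla2 read 10.86, 10.72, 10.89, 11.09 and 10.79 with CR, against 10.87 to 11.41 with SD, and was 1.26-fold lower (-0.34 ± 0.11, adjusted p = 0.0273). In both genes the diets overlapped. Without single arrays the Cideb call was lost in 3 of 15 fits (without SD replicate 1 or 3, or CR replicate 5, adjusted p up to 0.0741), and the Pnpla2 call in 6 of 15 (up to 0.072).

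G0s2 moved the other way from the lipase it inhibits. It read 12.15, 12.36, 12.97, 12.47 and 11.59 with CR, against 12.12, 10.02, 10.15, 9.83 and 11.99 with SD. The SD arrays fell apart, with replicates 1 and 5 near 12 and the other 3 near 10, and those 2 lay within the CR range. The change was 1.49 ± 0.45, 2.80-fold higher (adjusted p = 0.0226). It ranged from 1.24 to 1.81 without single arrays and did not pass without SD replicate 2, 3 or 4 or CR replicate 3 (adjusted p up to 0.0601).

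Plin2 (-0.49 ± 0.21, adjusted p = 0.0943) and the brighter Aup1 probe (0.20 ± 0.07, adjusted p = 0.0536) fell short of the threshold with CR. Plin5, the gene that fell with SRT2104, differed by 0.14 and 0.12 between CR and SD, with 95% intervals of -0.14 to 0.42 and -0.12 to 0.36. Between CR and SD in liver the brighter and dimmer probes differed in their change by 0.02 for Plin5 and 0.17 for Aup1, neither past the threshold, where 9.15% of all probe pairs passed.

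SRT2104 and CR livers differed directly in 6 of 11 member probes, 3 higher and 3 lower with SRT2104, where 27.1% of all probes differed. The same 6 probes had no overlap between the 2 diets, where 21.8% of all probes had none. The brighter Plin5 probe read 9.74 to 10.14 with SRT2104, against 10.95, 10.82, 10.74, 11.04 and 10.88 with CR, a 1.99-fold lower level (-0.99 ± 0.13, adjusted p = 6.79e-05). The dimmer probe read 7.86 to 8.28 against 8.57, 8.55, 8.52, 8.63 and 8.52, 1.44-fold lower (-0.52 ± 0.12, adjusted p = 0.00319). Both probes thus fell relative to CR, the brighter by a further -0.47 (adjusted p = 0.0011, against 15.5% of all pairs called). With neqc this difference between the probes was -0.20 (adjusted p = 0.274).

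Pnpla2 was 1.52-fold higher with SRT2104 than with CR (0.60 ± 0.11, adjusted p = 0.000612), and its inhibitor G0s2 was 2.70-fold lower (-1.43 ± 0.45, adjusted p = 0.0255). G0s2 read 11.41, 11.36, 9.90, 10.14 and 11.57 with SRT2104, so that its highest array lay just under the lowest CR array (11.59), and the call was lost without SRT2104 replicate 3 or 4 or CR replicate 3 or 4 (adjusted p up to 0.0727). Cideb was 1.38-fold higher with SRT2104 than with CR (0.47 ± 0.08, adjusted p = 0.000436). Plin3 read 9.50, 9.55, 9.24, 9.07 and 9.70 with SRT2104, all above the CR arrays, and was 1.35-fold higher (0.43 ± 0.10, adjusted p = 0.00348). Plin4 differed by 0.72 ± 0.28 and did not pass (adjusted p = 0.0657). The comparisons with SD share the SD arrays, and that of SRT2104 with CR uses the arrays of both diets again, so they are not independent of each other.

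Some markers of liver cell types also differed between the diets. Of 8 hepatocyte markers tested, 6 were higher with SRT2104 and 5 with CR relative to SD, where 3.16% and 26.7% of all liver probes passed. The summed hepatocyte level ran from 345000 to 568000 with SRT2104, from 306000 to 378000 with CR and from 238000 to 333000 with SD. Apoc3 is one of these markers, and its calls against SD depended on the scaling, as given below. The marker counts were not run under the other scalings. Of 9 macrophage markers, 4 were lower with CR than with SD. Of 4 adipocyte markers tested, 1 was lower with CR, Pparg (-0.76, adjusted p = 0.0283), where 26.7% of all liver probes passed. The median change over the 4 was -0.38. The summed adipocyte level without Car3 ran from 1130 to 1360 with CR and from 1280 to 1970 with SD. Adipoq was detected on 0 CR and 1 SD liver arrays, and Plin1, Retn and Fabp4 on none, while Retn and Fabp4 were detected on no muscle array either. The part of these cell type markers in the droplet genes was not tested.

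**Figure D2:**
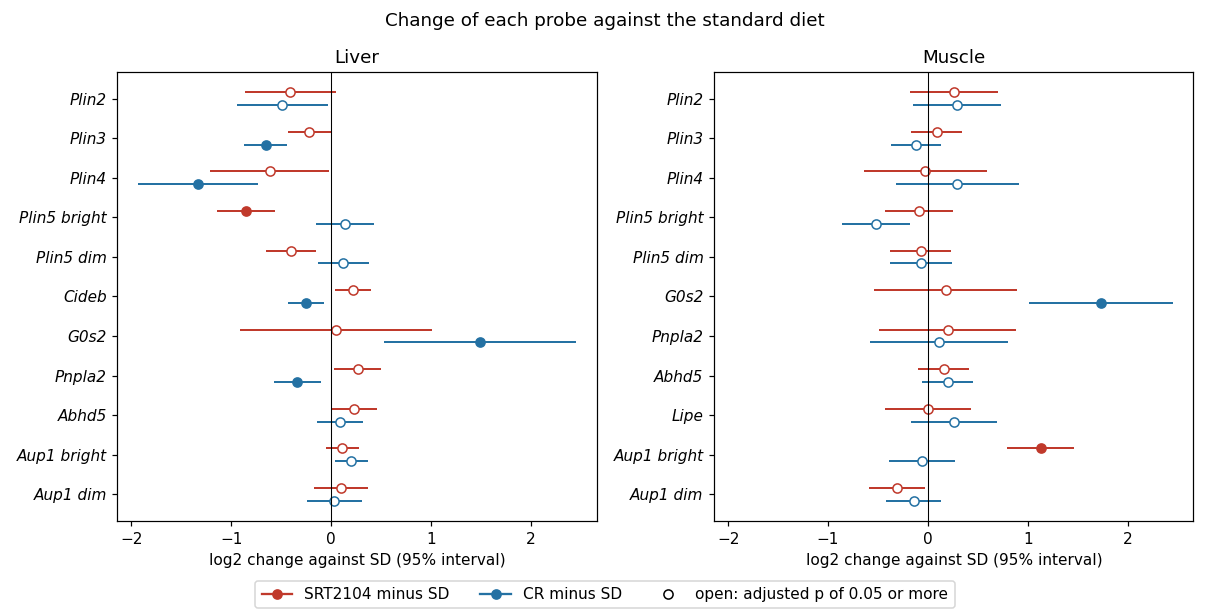
Change of each kept probe against SD (x axis, log2 units, with 95% intervals from limma) in liver and muscle, with SRT2104 above CR for each probe. Filled points have an adjusted p under 0.05. In liver Plin5 passes with SRT2104 alone among the 11 probes, while Plin3, Plin4, Cideb and Pnpla2 lie below 0 and G0s2 above 0 with CR. In muscle the brighter Aup1 probe passes with SRT2104 and G0s2 with CR.

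In muscle, 1 of the 2 Aup1 probes rose with SRT2104. The brighter probe read 9.48, 9.15, 9.68, 9.80 and 9.85 with SRT2104, against 8.19, 8.23, 8.44, 8.70 and 8.75 with SD. Every SRT2104 array was above every SD array. The level was 2.19-fold higher (1.13 ± 0.15, adjusted p = 0.000587). It was 1 of 11 member probes past the threshold, where 10.8% of all muscle probes passed, and 1 of 11 without overlap, where 18.5% of all probes had none. The CR arrays read 8.56, 8.21, 8.20, 8.45 and 8.61, close to SD (-0.06 ± 0.15, 95% interval -0.38 to 0.27), and SRT2104 was 2.28-fold higher than CR (1.19 ± 0.15, adjusted p = 0.000692). Over the 12 arrays the changes were 1.04 against SD and 1.11 against CR, both past the threshold. Markers of other cells moved with SRT2104 against SD in muscle as well. Of 7 macrophage markers 3 were lower, of 6 fibroblast markers 2 were lower, and of 2 blood cell markers 1 was higher. None of 5 adipocyte and 6 hepatocyte markers passed, with median changes of -1.31 and 2.02. SRT2104 replicate 3, the array with hepatocyte signal, is among these arrays. Over the 12 arrays 2 of 6 hepatocyte markers were higher (median 0.53) and 1 of 5 adipocyte markers was lower. Of 6 fibroblast markers 4 were then lower and of 6 endothelial markers 1 was higher, where 31.8% of all probes passed. The part of these cell type markers in the Aup1 result was not tested.

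The dimmer Aup1 probe did not rise. It read 7.48, 7.26, 7.76, 7.13 and 7.42 with SRT2104, against 7.33, 7.69, 7.91, 7.81 and 7.88 with SD, a difference of -0.31 ± 0.13 (adjusted p = 0.129). It was above background on 4 of 5 SRT2104 arrays and all 5 SD arrays. The probes differed in their change by 1.44 ± 0.15 against SD (adjusted p = 5.84e-05), where 11% of 2435 muscle pairs differed, and by 1.35 ± 0.15 against CR (adjusted p = 0.000192), where 7.64% did. Over the 12 arrays the dimmer probe was 1.41-fold lower with SRT2104 than with SD (-0.50, adjusted p = 0.000621) and 1.21-fold lower than with CR (-0.27, adjusted p = 0.0222), opposite to the brighter probe. Of all probes 31.8% and 34% passed in these fits. The difference between the probes was then 1.53 and 1.38, where 36% and 34.7% of all pairs differed. In liver the brighter and dimmer Aup1 probes differed by 0.11 and 0.10 between SRT2104 and SD, a difference between the probes of 0.01 (95% interval -0.22 to 0.25).

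**Figure D3:**
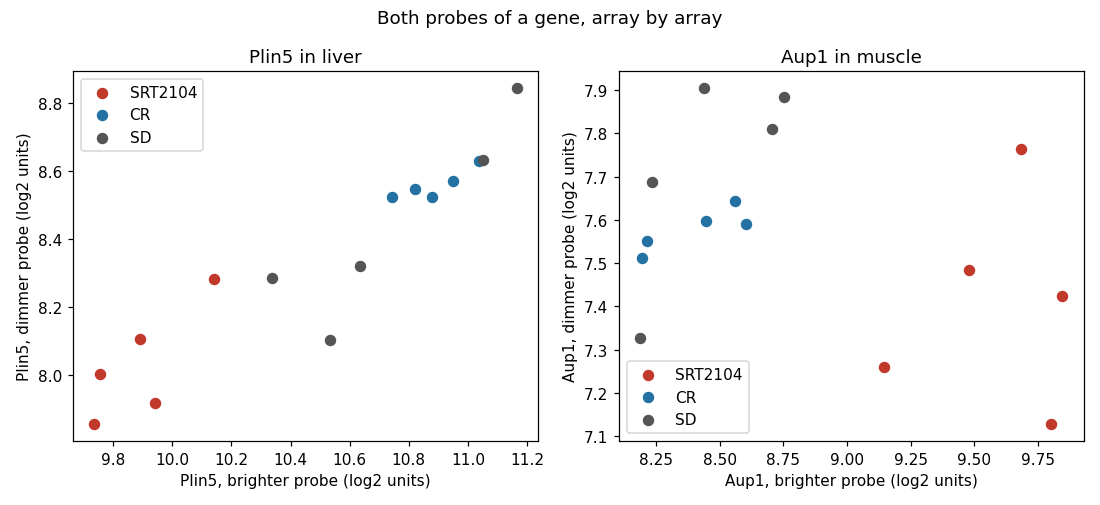
Both probes of a gene on each array (log2 units), Plin5 in liver and Aup1 in muscle, with the brighter probe on the x axis and the dimmer on the y axis. The Plin5 probes are low together on the SRT2104 arrays, whereas the Aup1 probes part, with SRT2104 arrays between 9.15 and 9.85 on the brighter probe, above all others, and between 7.13 and 7.76 on the dimmer, where the others lie between 7.33 and 7.91.

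G0s2 was the muscle gene that rose with CR. It read 10.39, 11.36, 9.45, 10.28 and 10.09 with CR, against 8.22, 8.65, 8.82, 8.08 and 9.13 with SD. All CR arrays were above all SD arrays. The level was 3.33-fold higher (1.73 ± 0.33, adjusted p = 0.0323). This was 1 of 11 member probes past the threshold, where 0.454% of all probes passed. The call was lost in 9 of 15 fits that leave out 1 array (change 1.47 to 1.95, adjusted p 0.00942 to 0.101), in a fit of CR and SD alone (0.0668) and on the deposited scores as they are (0.0508). Without CR replicate 2, whose adipocyte markers stood far above the rest, the change was 1.47 (adjusted p = 0.0541), without the 3 arrays set apart it was 1.86 (adjusted p = 0.00609, where 2.03% of all probes passed), and without all 4 it was 1.58 (adjusted p = 0.00498).

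SRT2104 muscle read 8.51, 9.08, 9.56, 8.60 and 8.04 for G0s2, which was close to SD (0.18 ± 0.33, adjusted p = 0.763) and 2.94-fold lower than CR (-1.56 ± 0.33, adjusted p = 0.0104). SRT2104 replicate 3 and CR replicate 3 made the ranges overlap, and over the 12 arrays the difference from CR was -1.97 (adjusted p = 0.000195). With Aup1 this gave 2 of 11 member probes past the threshold between SRT2104 and CR, where 10.7% of all probes passed, and 1 of 11 without overlap, where 9.91% had none. Over 12 arrays 4 of 11 passed, where 34% of all probes did. Adipocyte markers moved with this comparison. Of 5 tested, Adipoq (-2.49, adjusted p = 0.00959) and Lep (-2.45, adjusted p = 0.0288) were lower with SRT2104 than with CR, and Adipoq read 7.05 to 7.67 with SRT2104, 8.35 to 12.22 with CR and 8.57 to 9.27 with SD. Over the 12 arrays 3 of the 5 adipocyte markers were lower with SRT2104 than with CR. Retn and Fabp4 were detected on no muscle array and Plin1 on 1 CR array. Their part in the G0s2 result was not tested.

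Plin5 in muscle gave no call between CR and SD on either probe in any setting run. The brighter probe read 8.49, 8.41, 8.47, 8.22 and 8.37 with CR, against 8.58, 9.32, 9.16, 8.53 and 9.0 with SD. All CR arrays lay under all SD arrays, which made 2 of 11 member probes without overlap, where 3.38% of all probes had none, yet the change of -0.52 ± 0.16 did not pass (adjusted p = 0.211). SRT2104 arrays read 8.90, 9.10, 8.83, 8.42 and 8.88, which differed from CR by 0.43 (adjusted p = 0.0884) and over 12 arrays by 0.45 (adjusted p = 0.046). The dimmer probe, above background on 4 of 5 arrays of each diet, differed by 0.00 between SRT2104 and CR. The difference between the probes passed there (0.43 ± 0.10, adjusted p = 0.0146) but not with quantile normalization (0.35, adjusted p = 0.118) or neqc (0.42, 0.319), and between CR and SD it was -0.45 (adjusted p = 0.0978), where 0.0821% of pairs passed.

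The remaining muscle genes gave no call over 15 arrays, and single arrays set several of their ranges. Plin4 read 11.39 to 12.02 with SRT2104, 12.03, 13.32, 11.33, 12.02 and 11.90 with CR, and 11.28 to 12.16 with SD. Pnpla2 read 11.65 to 12.11 with SRT2104, 12.04, 12.91, 10.54, 11.81 and 11.64 with CR, and 11.04 to 11.94 with SD. Each gene was highest in CR replicate 2, and Pnpla2 was lowest in CR replicate 3. Lipe, on its 1 kept probe, was also highest in CR replicate 2 (8.40), with the SRT2104 arrays between 7.26 and 7.38, the other CR arrays between 7.20 and 7.70 and the SD arrays between 6.91 and 7.55. Lep and Cidec read 13.18 and 10.79 on that array, and the summed adipocyte markers without Car3 were 17600 there, against 1340 to 3870 on the other CR arrays, 1060 to 1180 with SRT2104 and 1490 to 1970 with SD. The part of these markers in Plin4, Pnpla2 and Lipe was not tested.

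Cideb, not kept in muscle, read 9.70 in SRT2104 replicate 3, the array with hepatocyte signal, and 7.02 to 7.10 on the other SRT2104 arrays, 6.83 to 7.39 with CR and 6.62 to 7.05 with SD. Plin2 was highest on that same array, at 8.37 against 7.09 to 7.32 on the other SRT2104 arrays. Both genes were far higher in liver than in muscle on SD. Plin2 was above background on 2 SRT2104, 4 CR and 3 SD muscle arrays and differed by 0.26 between SRT2104 and SD (adjusted p = 0.441), and by 0.04 over the 12 arrays. Abhd5 had 9.31 to 9.57 with SRT2104, 9.29 to 9.92 with CR and 9.20 to 9.54 with SD. It differed by 0.16 ± 0.11 between SRT2104 and SD (adjusted p = 0.408) and over the 12 arrays was 1.19-fold higher with SRT2104 (0.25, adjusted p = 0.0162). With it, 3 of 11 member probes passed over the 12 arrays, where 31.8% of all probes did. Plin3 averaged 8.11 with SRT2104, 7.90 with CR and 8.02 with SD, and the second Lipe probe was detected on no array.

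**Figure D4:**
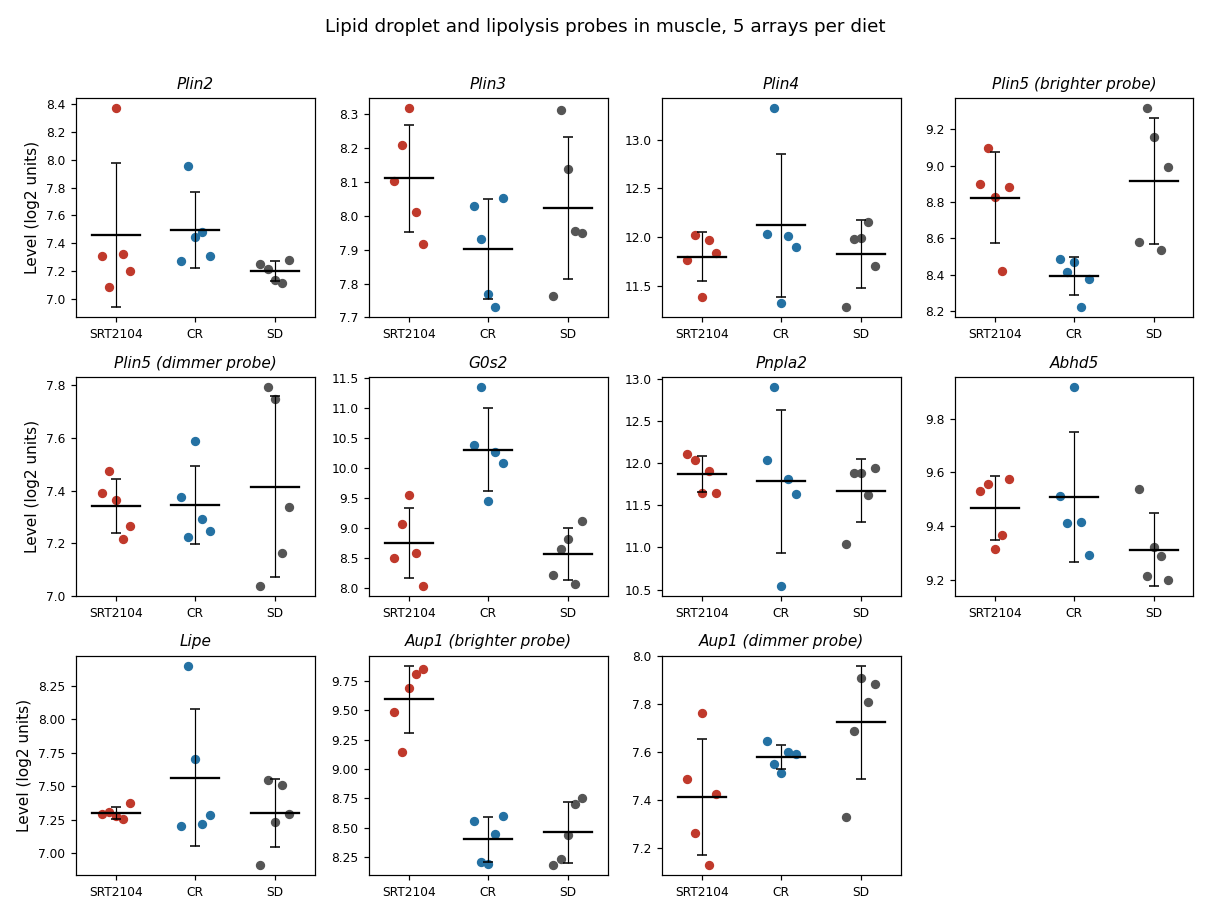
Level of each kept probe in muscle (log2 units, y axis, its own range in each panel) by diet (x axis), with points for arrays (5 for each diet) and bars for the mean and SD. The brighter Aup1 probe lies above 9 with SRT2104 only, and G0s2 lies above all SD arrays on all CR arrays.

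**Figure D5:**
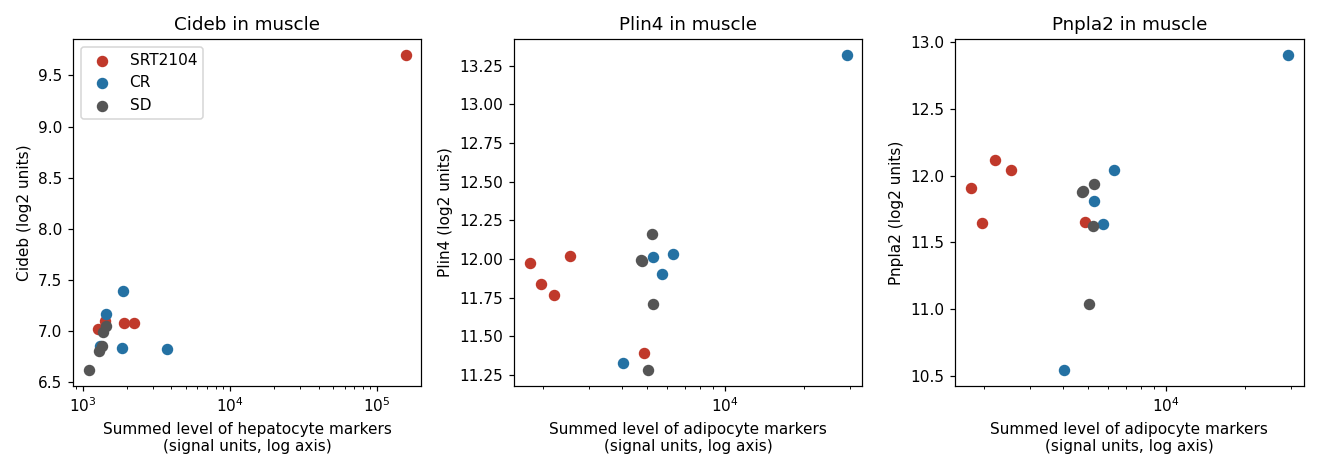
Level of Cideb (y axis, log2 units) against the summed hepatocyte markers, and of Plin4 and Pnpla2 against the summed adipocyte markers (x axes, signal units, log scale), 1 point for each of the 15 muscle arrays. One SRT2104 array holds the highest Cideb level (9.70) and hepatocyte sum (156000), and 1 CR array the highest Plin4 (13.32), Pnpla2 (12.91) and adipocyte sum (29200).

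The effects of the diets were compared between the tissues by an interaction term. It was fitted to the 8998 probes that liver and muscle had in common, on their shared scale, where single effects differ slightly from those above. The SRT2104 effect on the brighter Aup1 probe was 0.11 in liver and 1.20 in muscle, a difference of -1.10 ± 0.18 (adjusted p = 0.000309), where 18.8% of all probes differed. For the brighter Plin5 probe it was -0.80 in liver and -0.10 in muscle, and the difference did not pass (-0.70, adjusted p = 0.0523). It passed with arrays of the same diet and replicate number taken as 1 mouse (replicate block, adjusted p = 0.0422), with median scaling (0.0275) and in 7 of 20 fits that leave out 1 array (-0.80 to -0.60 over the 20, adjusted p 0.027 to 0.098), but not over the 12 muscle arrays (0.068). With quantile normalization the dimmer Aup1 probe passed (0.63, adjusted p = 0.0483). Plin4 passed only without liver SRT2104 replicate 5 (-0.89, adjusted p = 0.0163). Over the 12 muscle arrays the dimmer Aup1 probe also differed (0.62, adjusted p = 0.0119), where 28.8% of all probes did.

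The CR effect parted between the tissues for Plin4 and Plin2. It was -1.25 in liver and 0.30 in muscle for Plin4 (difference -1.56 ± 0.38, adjusted p = 0.0318) and -0.46 in liver and 0.33 in muscle for Plin2 (difference -0.79 ± 0.20, adjusted p = 0.0422), where 2.49% of all probes differed. Neither muscle value passed within muscle, nor did Plin2 within liver, and Plin2 was near background in muscle. Plin4 in muscle read 13.32 on CR replicate 2, the array with high adipocyte markers. The other CR arrays read 11.33 to 12.03 and the SD arrays 11.28 to 12.16. Within muscle the Plin4 change ran from -0.006 to 0.49 over the settings run. The Plin4 call was lost in 10 and the Plin2 call in 14 of 20 fits that leave out 1 array, and both were lost with quantile normalization (adjusted p = 0.0561 and 0.24). For G0s2 the effect was 1.40 in liver and 1.86 in muscle, and the difference of -0.46 did not pass (95% interval -1.69 to 0.77). Over the 12 muscle arrays Plin3 (-0.44, adjusted p = 0.0305) and the brighter Plin5 probe (0.81, adjusted p = 0.0285) differed as well, where 7.91% of all probes did.

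Other genes of the pathway were counted from 6 lists, each gene by its brightest kept probe, where 3.33%, 27.6% and 28.2% of all liver genes passed for SRT2104 against SD, CR against SD and SRT2104 against CR, and 9.31%, 0.426% and 9.98% of all muscle genes. Of 19 other lipid droplet proteins in liver, 0 passed with SRT2104 against SD. With CR 3 fell, namely the seipin gene Bscl2 (-0.25, adjusted p = 0.0154), the sterol enzyme Nsdhl (-0.69, 0.0274) and caveolin Cav1 (-0.56, 0.0419). Nsdhl (1.18, adjusted p = 0.000783) and Bscl2 (0.28, 0.00663) were higher with SRT2104 than with CR, as was Fitm1 (0.45, 0.039), while Hsd17b11 was lower (-0.45, 0.03). The CR count was 1 up and 2 down under neqc and 1 up and 3 down with quantile normalization.

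Of 14 other lipases and lipolysis regulators in liver, 4 rose and 4 fell with CR, and 3 and 5 with median scaling. The leading ones were the carboxylesterase Ces1d (0.91, adjusted p = 9.88e-05), which hydrolyses triglyceride in the endoplasmic reticulum, Abhd4 (-0.53, 0.000215) and the lysophospholipase Pnpla7 (-0.54, 0.00034). With SRT2104 against CR 2 rose and 5 fell, led by Pnpla7 (0.73, adjusted p = 3.28e-05), Ces1d (-0.97, 6.11e-05) and the monoglyceride lipase Mgll (-0.89, 7.6e-05), which takes the last step after Pnpla2 and Lipe. With SRT2104 against SD the protein kinase A subunit Prkaca fell (-0.34, adjusted p = 0.0183), while under neqc no gene of the list did and on the deposited scores 1 rose and 1 fell.

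Lipins, which make diglyceride on the way to triglyceride, were among the triglyceride synthesis genes that differed in the liver comparisons with CR. Of 14 in liver, 3 rose and 3 fell with CR, among them the phosphatidate phosphatase Lpin2 (-1.58, adjusted p = 3.59e-05), the acyltransferase Agpat1 (0.44, 0.000553) and the glycerol phosphate enzyme Gpd1 (-0.41, 0.00282). Against CR, 4 rose and 2 fell with SRT2104, with Lpin2 (2.06, adjusted p = 2.93e-06) and Lpin1 (2.41, 0.000308) ahead of Acsl5 (0.52, 0.00135), and 4 rose and 1 fell under neqc and on the deposited scores. Against SD, Agpat1 alone passed with SRT2104 (0.29, adjusted p = 0.0443), and 0 did under neqc or quantile normalization, while median scaling gave 1 up and 1 down.

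Of 11 VLDL assembly genes in liver, where Cideb acts, Apoa4 fell (-1.28, adjusted p = 0.0027) and Apoc3 rose (0.34, 0.0442) with CR, but the difference of Apoc3 changed sign under neqc and quantile normalization. This count of 1 up and 1 down was 0 up and 2 down under neqc and quantile normalization, 0 and 4 with median scaling and 0 and 1 on the deposited scores. Apoc3 (0.63, adjusted p = 0.0102) and Sar1b (0.35, 0.0264) were higher with SRT2104 than with SD, and neither passed under neqc or quantile normalization, while median scaling gave 1 up and 1 down. Against CR, Sar1b was higher (0.30, adjusted p = 0.0105) and Tm6sf2 lower (-0.43, 0.0104) with SRT2104, and quantile normalization gave 2 up and 1 down. Of 17 genes of endoplasmic reticulum-associated degradation, the pathway of Aup1, 0 passed with SRT2104 against SD in liver and 3 fell with CR, the ATPase Vcp (-0.45, adjusted p = 0.000386), Edem2 (-0.51, 0.00817) and Derl2 (-0.41, 0.0124). With median scaling the CR count was 2 up and 4 down. Vcp (0.62, adjusted p = 2.94e-05), Edem2 (0.51, 0.00783) and Derl2 (0.33, 0.0359) were higher and the ligase Syvn1 lower (-0.82, 0.0401) with SRT2104 than with CR, where neqc gave 3 up and 2 down.

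Of 18 PPAR alpha and fasting genes in liver, 6 rose and 1 fell with CR, led by the acyl-CoA thioesterases Acot3 (3.11, adjusted p = 4.6e-05), Acot4 (1.34, 0.000143) and Acot1 (1.53, 0.000317), and 0 passed with SRT2104 against SD. Against CR, 2 were higher and 7 lower with SRT2104, with the same thioesterases leading (Acot4 -1.53, Acot3 -3.00 and Acot1 -1.84), and 1 higher and 8 lower with median scaling. The counts for CR were 4 up and 2 down under neqc and 3 up and 1 down under median scaling.

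Few pathway genes passed in muscle over 15 arrays. With SRT2104 against SD, Rab18, a droplet GTPase, fell (-1.01, adjusted p = 0.00157), the glycerol phosphate acyltransferase Gpat4 rose (0.58, 0.00414) and Pdk4 fell (-1.11, 0.0129), from lists of 17, 12 and 11 genes, and 0 of 13 lipase, 8 VLDL or 15 degradation genes passed. Other scalings added a fall to the Gpat4 list (neqc and the deposited scores), up to 2 falls to the degradation list (deposited scores) and a fall to the fasting list of Pdk4 (neqc and quantile normalization), while median scaling added 2 rises to the VLDL list and 1 each to the Gpat4 and fasting lists. With CR against SD Pcyt1a alone passed (-0.66, adjusted p = 0.0482), which no other scaling called. With SRT2104 against CR, Rab18 was lower (-0.98, adjusted p = 0.00286) and Pcyt1a (0.66, 0.00842), Prkacb (0.52, 0.0229), Gpat4 (0.53, 0.0083) and P4hb (0.95, 0.0212) higher, with Sar1b lower (-1.24, 0.0218). Of 15 degradation genes 2 were higher, Syvn1 (0.63, adjusted p = 0.024) and Vcp (1.00, 0.0285), where 9.98% of all muscle genes passed. Prkacb did not pass under neqc or on the deposited scores, Sar1b did not on the deposited scores, and Vcp did not under neqc (adjusted p = 0.0506).

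Over the 12 muscle arrays more genes passed, both in these lists and over all genes (30.7% for SRT2104 against SD, 1.91% for CR against SD and 33.4% for SRT2104 against CR). With SRT2104 against SD the counts were 1 up and 1 down of 17 droplet genes, 1 and 1 of 13 lipase genes, 3 and 2 of 12 triglyceride synthesis genes, 2 and 2 of 8 VLDL genes, 1 and 2 of 15 degradation genes and 2 and 4 of 11 fasting genes. Gpd1 rose (0.90, adjusted p = 0.000152) and Lpin1 fell (-0.84, 0.000264) among the synthesis genes. In the VLDL list the folding enzyme P4hb rose (0.51, adjusted p = 0.000389) while Pdia3 (-0.73, 0.000287) and Sar1b (-0.86, 0.000339) fell. Vcp rose (0.40, adjusted p = 0.0106), and Acadm fell (-0.86, 0.00124) beside Pdk4. With CR against SD the call of Pcyt1a was lost (adjusted p = 0.0506) and Prkacb fell (-0.42, 0.0437). Between SRT2104 and CR the counts were 2 higher and 3 lower of the droplet genes, 2 and 1 of the lipase genes, 3 and 4 of the synthesis genes, 1 and 2 of the VLDL genes, 3 and 1 of the degradation genes and 1 and 2 of the fasting genes.

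Genes whose levels followed a member most closely over the 15 arrays of a tissue were found by Pearson correlation, as a description of arrays that share their diets. The search ran across 7725 genes in liver and 7752 in muscle, each by its brightest kept probe. Plin5 in liver was closest to Acnat2 (r = 0.911), an acyltransferase gene, to Cyp4f15 (0.888) and to Rars (0.878). Plin3 was closest to Ccnq (0.928), Maged2 (0.926) and Coro1b (0.925), and Cideb to Selenoo (0.911), Thnsl2 (0.910) and Pef1 (0.903). The brighter Aup1 probe in muscle was closest to Zfand2b (0.975), Men1 (0.934) and the clock-controlled transcription factor gene Dbp (0.900). The dimmer Aup1 probe, which did not rise with SRT2104, was not used here. For G0s2, added after its values were seen, the search ran over all kept probes with a symbol and not over the brightest of each gene. G0s2 was closest to Acot13 (0.940), Exoc8 (0.924) and Hus1 (0.919) in liver, and in muscle to Tra2a (0.798), Egr2 (0.787) and Fam184b (0.781).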

How the data were processed

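Labelled cRNA of liver and muscle was hybridised by the authors to 30 Illumina MouseRef-8 v2 arrays, scanned, and extracted with GenomeStudio 1.6.0, as the submitters' notes give it. As deposited, the signals are linear intensity values, and each has a deposited detection p-value from the negative control beads. The deposited scores are z-scores that the authors made from the natural log of the signal. Their notes describe a detection filter before scaling, but each of the 30 score columns has mean 0 and SD 1 over all probes. Signal columns name tissue and diet but not the labels' replicate, so replicates were taken from the score columns, and 0 columns were left without a sample or group.

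A probe was kept in a tissue if at least 5 of 15 arrays had a detection p-value under 0.02. Scores were rescaled over them and multiplied by the mean array SD (1.71 log2 units in liver and 1.49 in muscle). All 3 diets of a tissue were fitted together with limma 3.58.1 in R 4.3.3, with Benjamini-Hochberg adjustment. For genes with several probes, the brightest probe minus each other was fitted the same way. The fits were tested on simulated data.

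Symbols came from the platform annotation (23978 probes with 1 symbol, 0 with several, 1719 with none), and 16583 symbols were in the RefSeq table. All probes of the 10 genes are named, with the 3 leading genes of each list, or all that passed where 5 or fewer did. The members, lists and the 12-array set were chosen with earlier results of these data known. The alternatives were neqc, quantile normalization, median scaling, the deposited scores, no detection filter, detection on all 15 arrays, the 2 diets alone, a replicate block, the methods' t-test, fewer muscle arrays and leaving out each array, and the fits over 11 muscle arrays and over SD arrays alone, the adipocyte sum without Car3 and the genes closest to G0s2 were added after seeing the data. The design notes give 5 mice per group with liver and muscle of each, and the signal columns carry numbers that both tissues of a diet share, but no source ties these to the replicate numbers of the labels. Deviations of liver and muscle arrays with the same diet and replicate number correlated above 0.1 in 5 of 15 pairs, 4 of them on SD (range -0.123 to 0.364), so the fits between tissues were also run with these pairs as a block. Precision is limited by the number of arrays, and p-values weigh differences between group means against the spread between these samples.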

Additional observations from a re-analysis of the deposited data

Results flagged for a closer look

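Plin2 in muscle read 8.37 in SRT2104 replicate 3, while the other 4 SRT2104 arrays lay between 7.09 and 7.32, a gap too wide for 1 group by Dixon's test. Of 66 groups of 5 tested, this was the 1 that stood out, and chance marks about 1 in 20. The same array had the highest summed hepatocyte markers in muscle (156000), and on SD Plin2 averaged 11.14 in liver and 7.46 in muscle on the shared log2 scale, where it was above background on 3 of the 5 SD muscle arrays.

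The effect of SRT2104 on the brighter Aup1 probe differed between liver and muscle by -1.10 on the log2 scale (0.11 in liver, 1.20 in muscle, adjusted p = 0.000309 for the interaction term of limma). The effect of CR differed by -0.79 for Plin2 (-0.46 in liver, 0.33 in muscle, adjusted p = 0.0422) and by -1.56 for Plin4 (-1.25 in liver, 0.30 in muscle, adjusted p = 0.0318). Without single arrays the adjusted p ran from 0.0174 to 0.0818 for Plin2 and from 0.00272 to 0.0605 for Plin4. Neither muscle change passed within muscle. Plin4 read 13.32 on muscle CR replicate 2, the array with high adipocyte markers, against 11.33 to 12.03 on the other muscle CR arrays.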

How the results depend on the processing

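No called value of the 10 genes changed sign under the alternatives run. The number of member probes past the threshold for liver SRT2104 against SD (1) was 2 on the deposited scores, 3 without a detection filter and 0 by the methods' t-test after adjustment, which also gave 2 for liver CR against SD (5) and 1 for muscle SRT2104 against CR (2). For muscle CR against SD (1) it was 0 on the deposited scores, without the filter, with the 2 diets alone, with the replicate block and by the t-test. Over 12 muscle arrays muscle SRT2104 against CR gave 4 and muscle SRT2104 against SD (1) gave 3, the count that 11 arrays gave for the comparison with SD as well. The SRT2104 effect between tissues (1) gave 2 with quantile normalization, median scaling, the replicate block and 12 or 11 muscle arrays. The CR effect between tissues (2) gave 0 with quantile normalization, 1 on the deposited scores and 4 over 12 or 11 arrays. Probe pairs (5) gave 2 with neqc, 3 with quantile normalization and 2 with detection on all 15 arrays, where fewer probes enter. The other causes were not tested.

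Leaving out 1 array gave 3 to 6 for liver CR against SD, 1 to 2 for liver SRT2104 against SD, 5 to 6 for liver SRT2104 against CR, 0 to 1 for muscle CR against SD, 2 to 2 for muscle SRT2104 against CR, 1 to 2 for muscle SRT2104 against SD, 0 to 3 for the CR effect, 1 to 2 for the SRT2104 effect, 12 to 12 for liver against muscle and 4 to 5 for probe pairs. Over all muscle probes, calls ran from 721 to 2752 for SRT2104 against SD, from 11 to 72 for CR against SD and from 602 to 2137 for SRT2104 against CR.

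Within a tissue, same numbers belong to different mice, and deviations of same-numbered arrays correlated above 0.1 in 15 of 30 comparisons (range -0.251 to 0.306). With the replicate block, liver SRT2104 against CR gave 7 and muscle SRT2104 against CR 3. By the t-test after adjustment Cideb, G0s2 and Pnpla2 with CR in liver and G0s2 in muscle no longer passed. Signals near background limit Plin2, Lipe and the dimmer Plin5 and Aup1 probes in muscle.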
